A study of Sus scrofa with 32 samples.

Results

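Nuclear and membrane steroid receptors were followed across the pig endometrium on Day 14, at the onset of embryo attachment. The group holds 9 of the 30185 counted genes, each found by its pig symbol: the nuclear receptors ESR1, PGR, NR3C1 and NR3C2, the heme-binding membrane proteins PGRMC1 and PGRMC2, and the membrane progestin receptors PAQR5, PAQR7 and PAQR8. Prepuberal gilts were synchronized with eCG and hCG. The 4 pregnant gilts were inseminated with semen, and the 4 nonpregnant gilts, called cyclic here, with semen supernatant. The luminal (LE) and glandular (GE) epithelium, blood vessels (BV) and stroma (S) were laser-captured from stained frozen sections, which in pregnant gilts came from the hyperemic zones where embryos attach. The 31 libraries analysed comprised 1 per gilt and compartment, except for the missing gland library of pregnant gilt 41 (not analysed here), which leaves n = 3 in pregnant GE and n = 4 elsewhere. Libraries are named as in the labels by C (control, cyclic) or P (pregnant), a letter for the compartment (L, G, B or S) and the gilt's number, so that CG40 is the gland library of cyclic gilt 40. Values of single libraries are given in the order CL128, CL40, CL42 and CL78 for cyclic and PL139, PL39, PL41 and PL43 for pregnant gilts, with the letter of the compartment in place of L. Breed and age beyond prepuberal are not given in the sources used here. Because pregnant tissue was taken at attachment sites, pregnancy and site of sampling cannot be told apart.

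ESR1 encodes estrogen receptor alpha and PGR the progesterone receptor, which bind DNA when their hormones enter the cell. In the uterus estrogen raises and prolonged progesterone lowers their levels in the epithelium, whereas the stroma typically keeps progesterone receptor and signals back to the epithelium. NR3C1 encodes the glucocorticoid receptor and NR3C2 the mineralocorticoid receptor, which binds aldosterone, cortisol and progesterone, the latter as an antagonist. PGRMC1 and PGRMC2 are heme-binding proteins of intracellular membranes tied to progesterone responses and cytochrome P450 function. PAQR5, PAQR7 and PAQR8 encode membrane progestin receptors gamma, alpha and beta, which mediate rapid responses to progestins. In the pig, conceptus estrogen around this stage acts on the endometrium alongside ovarian progesterone.

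The libraries held 2415200 to 7081600 counts to 5 digits (median 3624000). Levels are counts scaled to libraries of equal size (CPM), in which 1 count equals 0.141 to 0.414. They were set by joint trimmed-mean (TMM) scaling of all libraries. The captured compartments were checked with marker genes. The sum of 7 epithelial markers lay between 1540 and 3231 CPM in LE and GE and between 3.41 and 453 CPM in BV and S. In LE it was 2650 to 3231 CPM in cyclic and 2296 to 2535 CPM in pregnant gilts, without overlap. In BV it ranged from 3.41 to 50.1 CPM in cyclic and from 162 to 317 CPM in pregnant gilts, and in S from 10.6 to 178 and from 37.6 to 453 CPM, the highest value being that of pregnant gilt 41. The sum of 6 fibroblast markers reached 15.9% of its S mean in LE and 7.03% in GE. For these fibroblast markers the vessel mean was 75.5% of the stromal mean, so that they separated vessels from stroma poorly. The sum of 6 endothelial markers, relative to its vessel mean, was 54.4% in stroma, 24% in luminal and 2.2% in glandular epithelium. The sum of 6 smooth muscle markers was 5302 to 17064 CPM in cyclic and 788 to 6486 CPM in pregnant BV. Its stromal mean was 8.53% of its vessel mean. How much RNA of neighbouring compartments each capture held was not tested. In bulk samples such as these, fewer cells of a type and less RNA per cell cannot be told apart.

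All 9 genes were detectable (present in the authors' filtered table) in LE and GE, and 8 of 9 in all 4 compartments. PAQR5 was outside the filtered tables of BV and S. Over all 31 libraries the counts summed to between 1036 for PAQR7 and 53083 for PGRMC1. Annotated loci on the opposite strand overlap members. LOC102166663, which overlaps PGRMC2, had 164 counts against 6097, and the loci overlapping NR3C1 and NR3C2 had 5 counts each. Strand use in counting is not given in the sources used here.

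Per kilobase of exon, PGRMC1 had the highest mean level of the 9 genes in every compartment over all libraries, at 545 ± 91.7 CPM per kb in GE (SD, n = 7), 270 ± 69.1 in LE (n = 8), 70.5 ± 48.0 in BV (n = 8) and 51.8 ± 31.4 in S (n = 8). In the glands it stood above PGRMC2, with 36.5 ± 7.97 CPM per kb, and above ESR1, with 21.3 ± 9.55 CPM per kb. PGR in S had 41.2 ± 7.88 CPM per kb and exceeded PGRMC1 in 4 of 8 libraries. Without the library of pregnant gilt 41, where PGRMC1 was highest (an alternative chosen after seeing the data), the means in S were 41.7 ± 13.5 for PGRMC1 and 41.8 ± 8.28 CPM per kb for PGR (n = 7). The S means of the other nuclear receptors were lower, at 15.6 ± 2.56 for ESR1 and 15.4 ± 2.69 for NR3C1. The membrane progestin receptor PAQR7 lay between 2.13 and 3.43 CPM per kb on average over the compartments, and PAQR8 between 3.34 and 5.24 CPM per kb. The lowest means were those of PAQR5 in S, at 0.33 ± 0.254, and in BV, at 0.537 ± 0.578 CPM per kb. Lengths are the union of all annotated exons, 17.23 kb for ESR1 and 1.85 kb for PGRMC1, and genes with long alternative exons are scaled down by them.

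**Figure D1:**
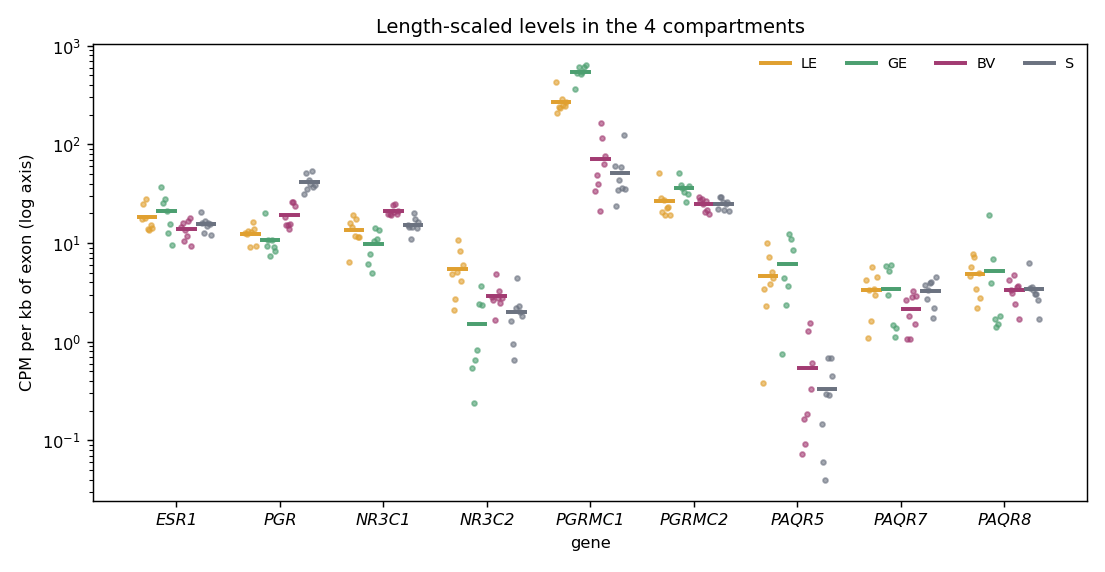
Level of each gene in CPM per kb of exon (log axis) in LE, GE, BV and S, with 1 point per library and a bar at the mean over cyclic and pregnant gilts. The bar of PGRMC1 is the highest in every compartment, with points that overlap those of PGR in S, and the bar of PAQR5 is the lowest in BV and S.

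Between compartments, 25 of 54 comparisons of the 9 genes passed a false discovery rate (FDR) of 1% in a joint model with the gilt as a replicate block. By pair, 3 of 9 genes passed between LE and GE, where 41.4% of all 13887 genes tested passed, 5 between LE and BV (49.2%), 4 between LE and S (50.6%), 7 between GE and BV (58.3%), 5 between GE and S (59.3%) and 1 between BV and S (7.19%). Compartment differences of this kind were thus frequent among all genes as well. Without the block, 22 of the 54 comparisons passed. These counts include PAQR5 against BV and S, although PAQR5 entered the model through the filtered tables of LE and GE alone.

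PGR was highest in S. Its level there ranged from 158 to 275 CPM over 8 gilts, against 69.7 to 133 CPM in BV, 46.6 to 83.1 CPM in LE and 37.1 to 102 CPM in GE, so that S overlapped with no other compartment. The fitted level in S was 2.19 times that in BV (adjusted p = 9.56e-05), 3.36 times that in LE (adjusted p = 1.99e-08) and 3.95 times that in GE (adjusted p = 4.98e-09). BV in turn exceeded LE by 1.53 times (adjusted p = 0.00262) and GE by 1.81 times (adjusted p = 0.000201). LE and GE could not be separated (log2 difference 0.23 ± 0.17 SE, adjusted p = 0.264). The mean in LE was 30.2% and in GE 26.3% of that in S, whereas the fibroblast markers were at 15.9% and 7.03%. Whether stromal RNA in the epithelial or vessel captures contributed to PGR counts was not tested.

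ESR1, in contrast, varied little between compartments. Its CPM ranged from 232 to 482 in LE, 164 to 635 in GE, 161 to 306 in BV and 209 to 351 in S, and these pooled ranges overlapped throughout. In cyclic gilts alone, LE (301 to 482 CPM) and GE (367 to 635 CPM) lay above BV (179 to 274 CPM) without overlap. Cyclic GE also lay above cyclic S (216 to 351 CPM). In pregnant gilts the ranges of all compartments overlapped. In descending order of the means the compartments were GE, LE, S and BV. The difference between GE and BV passed (1.41 times, adjusted p = 0.00294), but it had an adjusted p of 0.0128 without the gilt block. No pair of neighbours in the order passed (log2 LE minus GE -0.10 ± 0.13, log2 LE minus S 0.21 ± 0.13, log2 BV minus S -0.19 ± 0.13).

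NR3C1 and NR3C2 were distributed differently. NR3C1, the glucocorticoid receptor, was highest in BV, where its 8 values lay between 161 and 207 CPM. It was 1.58 times higher there than in LE (adjusted p = 0.000592) and 2.24 times higher than in GE (adjusted p = 1.6e-06), while the difference to S had an adjusted p of 0.0397. S ranged from 93.0 to 169 CPM, LE from 53.8 to 160 CPM and GE from 41.8 to 119 CPM. S exceeded GE by 1.63 times (adjusted p = 0.00047), and S and LE could not be separated (adjusted p = 0.235). NR3C2, the mineralocorticoid receptor, was highest in LE over cyclic and pregnant gilts together, with 14.0 to 72 CPM. The level there was 4.16 times that in GE (adjusted p = 7.9e-08) and 2.72 times that in S (adjusted p = 1.25e-06). It was 1.73 times that in BV (adjusted p = 0.000956, 0.0101 without the gilt block). LE and BV overlapped in cyclic gilts (14.0 to 34.4 and 11.1 to 32.7 CPM) but not in pregnant gilts (28.1 to 72 and 16.9 to 22.0 CPM). The pregnancy difference in LE minus that in BV did not pass in the joint model (log2 1.02 ± 0.36, adjusted p = 0.0778). LE was above GE in 7 of 7 gilts (mean log2 difference 2.12, exact sign-flip p = 0.0156, the smallest possible with 7 gilts). BV, with 11.1 to 32.7 CPM, exceeded GE by 2.41 times (adjusted p = 1.79e-05). The differences of S to BV (adjusted p = 0.0249) and to GE (adjusted p = 0.0137) missed the threshold.

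PGRMC1 and PAQR5 were epithelial. PGRMC1 reached 682 to 1189 CPM in GE and 388 to 800 CPM in LE, against 39.5 to 306 CPM in BV and 44.0 to 228 CPM in S. GE exceeded LE by 2.14 times (adjusted p = 0.00159), and LE exceeded BV by 4.35 times (adjusted p = 8.25e-07) and S by 5.5 times (adjusted p = 1.49e-07). BV and S could not be separated (adjusted p = 0.446). PAQR5 had 6.91 to 114 CPM in GE and 3.48 to 92.1 CPM in LE, which overlapped widely (log2 LE minus GE -0.42 ± 0.29, adjusted p = 0.231). In BV it had 0.672 to 14.4 CPM and in S 0.365 to 6.31 CPM. GE exceeded BV by 15.6 times and S by 19 times, in 7 of 7 gilts each. LE exceeded BV by 11.6 times and S by 14.2 times. PAQR5 entered the joint model through the filtered tables of LE and GE alone, where it was high. Its p values against BV and S are therefore not given, and these folds are a description. The means of PAQR5 in BV and S were 8.72% and 5.35% of that in GE, its highest compartment. The epithelial markers in BV and S stood at 4.4% and 5.65% of LE, their highest compartment, and in GE at 63.9% of LE. These shares thus have different bases and cannot be compared directly.

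PGRMC2 was highest in GE. It was 1.4 times higher there than in LE (adjusted p = 0.00483, 0.0102 without the gilt block), 1.45 times higher than in BV (adjusted p = 0.00144) and 1.43 times higher than in S (adjusted p = 0.00223), with 48.2 to 94.9 CPM in GE, 35.2 to 94.7 CPM in LE, 36.0 to 53.5 CPM in BV and 38.8 to 54.1 CPM in S. No difference between LE, BV and S passed (adjusted p from 0.723 to 0.917). Of PAQR7 and PAQR8, none of the 12 comparisons passed, the smallest adjusted p being 0.0114 for PAQR7 between LE and BV. PAQR7 had 3.06 to 15.9 CPM in LE, 3.14 to 17 CPM in GE, 2.97 to 9.09 CPM in BV and 4.94 to 12.6 CPM in S. PAQR8 had 5.73 to 20.5 CPM in LE, 3.74 to 51.0 CPM in GE, 4.45 to 12.3 CPM in BV and 4.43 to 16.4 CPM in S.

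**Figure D2:**
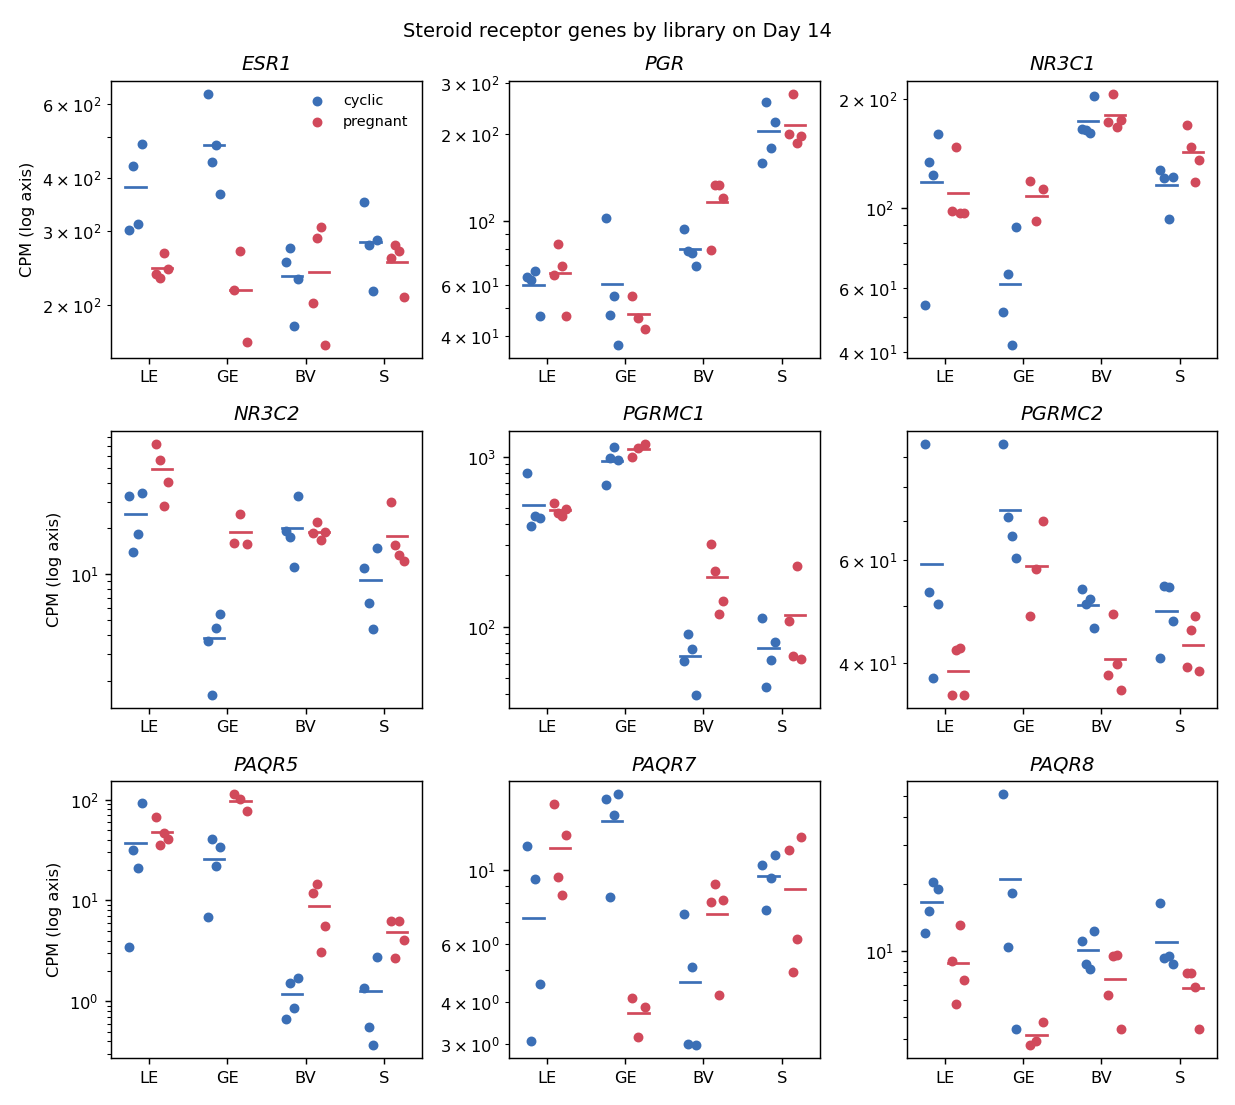
CPM (log axis) of the 9 genes in each library of LE, GE, BV and S, with cyclic gilts in blue, pregnant gilts in red and a bar at each group mean. In GE, NR3C2, PAQR5 and NR3C1 of the 3 pregnant gilts lie above and ESR1 and PAQR7 below all 4 cyclic gilts.

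Pregnant and cyclic gilts were then compared within each compartment. A gene was called in LE when it passed an FDR of 1%, and in the other compartments when its p did not exceed the largest one called in LE (0.000328 with the edgeR quasi-likelihood test). By this rule the quasi-likelihood test called none of the 9 receptor genes in any compartment, while of all genes tested it called 3.32% for LE, 0.748% for GE, 1.86% for BV and 0.293% for S. Of the receptor genes, 4 in LE, 6 in GE and 2 each in BV and S had an unadjusted p under 0.05, against 26.9%, 23%, 28.5% and 14.5% of all genes. With an FDR of 5% within the compartment, PAQR7 and NR3C2 passed in GE and PGRMC1 in BV, against 1.86% of all genes in GE and 8.63% in BV, and none passed in LE (10.7%) or S (0.0335%). The same rule with edgeR's robust likelihood ratio test, the one used by the study, called 5 of 9 genes in GE, namely ESR1, PAQR5, PAQR7, PAQR8 and NR3C2, against 6.66% of all genes. It called PGRMC1 as the only 1 of 8 in BV (11% of all genes) and none in LE (11.8%) or S (3.16%). DESeq2 called 4 of 9 in GE, without PAQR8 (6.64% of all genes), PGRMC1 in BV (8.5%) and none in LE (11.2%) or S (2.6%). The receptor calls in GE thus depended on the test.

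Read against the spread between libraries, cyclic and pregnant values did not overlap for 5 of 9 genes in GE, where 22.9% of all genes had no overlap. This applied to 1 of 9 genes in LE (ESR1, with 19.4% of all genes), to 1 of 8 tested genes in BV (PGRMC1, with 18.2%) and to 1 of 8 in S (PAQR8, with 8.81%). Group values of PAQR5 did not overlap in BV either.

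**Figure D3:**
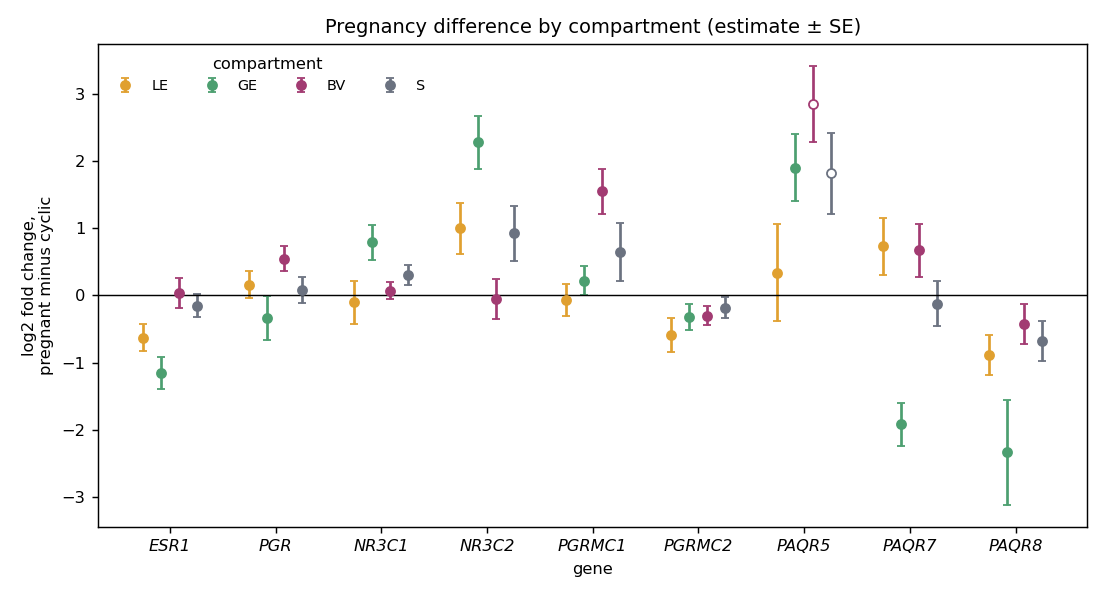
Log2 fold change, pregnant minus cyclic, with its SE for the 9 genes in LE, GE, BV and S (edgeR quasi-likelihood). Open symbols for PAQR5 in BV and S come from the fit without the low-count filter. Among filled symbols the largest distances from 0 are those of PAQR8, NR3C2, PAQR7 and PAQR5 in GE, the open symbol of PAQR5 in BV lies further out at 2.85, and PAQR7 in GE lies opposite to LE and BV.

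In the glands NR3C2 had 3.67, 1.61, 4.44 and 5.51 CPM in the cyclic libraries CG128, CG40, CG42 and CG78 and 16.1, 24.9 and 15.8 CPM in the pregnant libraries PG139, PG39 and PG43. Every pregnant library was above every cyclic one, on summed counts of 230 and 72. The log2 fold change was 2.28 ± 0.39 (SE), a fold of 4.87 (adjusted p = 0.0436). NR3C1 was higher in pregnant GE too, with 119, 92.2 and 113 CPM against 51.6, 65.5, 41.8 and 88.4 CPM. Its log2 fold change was 0.79 ± 0.26 and did not pass (adjusted p = 0.127), nor with the robust test (adjusted p = 0.0292) or DESeq2 (adjusted p = 0.0594).

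PAQR5, membrane progestin receptor gamma, had 6.91, 41, 21.8 and 33.9 CPM in cyclic and 114, 102 and 77.7 CPM in pregnant GE. The groups did not overlap, and CG128 was lowest. The log2 fold change of 1.90 ± 0.50 (fold 3.74) missed the threshold (adjusted p = 0.0832), whereas it was called with the robust test (log2 1.79, adjusted p = 0.000119) and DESeq2 (adjusted p = 0.0057). Without 1 of the libraries the log2 fold change lay between 1.58 and 2.2.

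PAQR7 and PAQR8 went the other way. PAQR7, membrane progestin receptor alpha, had 16.4, 8.30, 14.7 and 17 CPM in cyclic and 4.13, 3.14 and 3.88 CPM in pregnant GE, on summed counts of 265 and 46. All pregnant values were below all cyclic ones, and the level was 3.79-fold lower (log2 -1.92 ± 0.32, adjusted p = 0.0434). PAQR8, membrane progestin receptor beta, had 51.0, 10.4, 18.2 and 4.45 CPM in cyclic and 3.74, 3.93 and 4.78 CPM in pregnant GE. Here the groups overlapped, CG128 was far above the others, and the log2 fold change of -2.34 ± 0.78 did not pass (adjusted p = 0.133). Without 1 library it lay between -2.67 and -1.43.

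ESR1 in GE had 635, 438, 481 and 367 CPM in cyclic and 218, 269 and 164 CPM in pregnant gilts. The groups did not overlap and the fitted level was 2.22-fold lower (log2 -1.15 ± 0.24, adjusted p = 0.0566), with an adjusted p of 0.00521 in the robust test and 0.000572 in DESeq2. The same direction was seen in LE, with 301, 427, 312 and 482 CPM in cyclic and 237, 232, 266 and 244 CPM in pregnant gilts. These groups did not overlap either, but the log2 fold change of -0.63 ± 0.20 did not pass (adjusted p = 0.0724). The epithelial marker sum was also lower in pregnant than in cyclic LE, and its part in this difference was not tested. PGR, PGRMC1 and PGRMC2 did not pass in GE with any of these tests, their log2 fold changes being -0.34 ± 0.33, 0.22 ± 0.22 and -0.32 ± 0.20.

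The sum of 6 leukocyte markers was 21.8 to 32 CPM in cyclic and 70.5 to 102 CPM in pregnant GE, without overlap. Of 4 such markers tested, the quasi-likelihood test called 0, and 3 had an unadjusted p under 0.05 (23% of all genes). The robust test and DESeq2 called 2 each (6.66% and 6.64% of all genes). The sum of 6 endothelial markers overlapped, with 15.3 to 42.2 and 18.1 to 171 CPM. The epithelial marker sum was 1576 to 1934 and 1540 to 1749 CPM. In BV and S, where the leukocyte sum reached 68.1 to 399 CPM, NR3C2 had 4.37 to 32.7 CPM, and whether such cells contributed to NR3C2 in pregnant GE was not tested.

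In blood vessels PGRMC1 had 62.9, 90.8, 73.8 and 39.5 CPM in cyclic and 306, 213, 118 and 142 CPM in pregnant gilts. All pregnant libraries were above all cyclic ones (log2 1.55 ± 0.33, fold 2.93, adjusted p = 0.0262). PAQR5 had 0.672, 1.5, 0.852 and 1.70 CPM in cyclic and 11.8, 14.4, 3.06 and 5.57 CPM in pregnant BV, on 14 and 89 counts, and without the low-count filter its log2 fold change was 2.85 ± 0.57 (adjusted p = 0.0166). The epithelial markers were higher in pregnant BV as well. CDH1, the epithelial adhesion protein E-cadherin, had 1.42 to 8.39 CPM in cyclic and 43.7 to 96.9 CPM in pregnant BV, and EPCAM 0.284 to 11.7 and 21.5 to 91.8 CPM. CDH1 and CLDN3 were called there (1.86% of all genes), and 5 of 6 epithelial markers tested passed an FDR of 5% (8.63% of all genes). The libraries PB139 and PB39, which had the highest epithelial sums of the vessels (317 and 191 CPM), also had the highest PGRMC1. Among cyclic BV, CB40 was highest in both (50.1 CPM of markers and 90.8 CPM of PGRMC1). The other cyclic vessels did not keep this order. CB42 had the lowest sum (3.41 CPM) with 73.8 CPM of PGRMC1, and CB78 a sum of 28.0 CPM with the lowest PGRMC1 (39.5 CPM). The part of epithelial RNA in these differences was not tested.

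**Figure D4:**
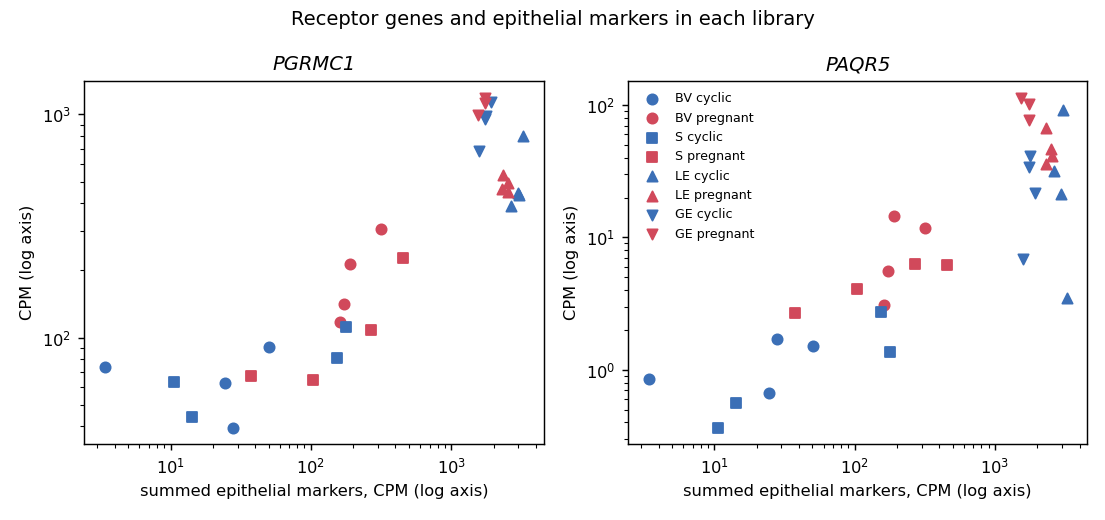
PGRMC1 and PAQR5 (CPM, log axis) against the sum of 7 epithelial markers (CPM, log axis) in each library, with circles for BV, squares for S, upward triangles for LE, downward triangles for GE, blue for cyclic and red for pregnant gilts. Pregnant BV, at 162 to 317 CPM of markers, lies above and to the right of cyclic BV, at 3.41 to 50.1 CPM.

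In stroma, the epithelial sums of cyclic and pregnant gilts overlapped. PAQR5 had 1.35, 0.561, 0.365 and 2.74 CPM in cyclic and 6.31, 2.66, 6.22 and 4.09 CPM in pregnant S, which overlapped, with a log2 fold change of 1.82 ± 0.60 without the filter (adjusted p = 0.302). PGRMC1 was highest in pregnant gilt 41, with 228 CPM, the library with the highest epithelial sum of S, and its log2 fold change of 0.65 ± 0.43 (adjusted p = 0.532) became 0.09 without that library. PGR in BV had 93.8, 78.2, 77.2 and 69.7 CPM in cyclic and 79.1, 133, 133 and 120 CPM in pregnant gilts, and these overlapped through PB139 (log2 0.55 ± 0.18, adjusted p = 0.0829). PGR in S, where it was most abundant, had 158 to 257 CPM in cyclic and 186 to 275 CPM in pregnant gilts, and no difference was detected (log2 0.08 ± 0.19, adjusted p = 0.89).

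For the other genes no test passed. In LE the log2 fold changes were 1 ± 0.38 for NR3C2 (adjusted p = 0.126), -0.89 ± 0.30 for PAQR8 (adjusted p = 0.0907), 0.73 ± 0.43 for PAQR7, -0.59 ± 0.26 for PGRMC2, 0.34 ± 0.72 for PAQR5 and between -0.10 and 0.16 for PGR, PGRMC1 and NR3C1. In S they were 0.93 ± 0.41 for NR3C2, -0.68 ± 0.30 for PAQR8 and 0.31 ± 0.15 for NR3C1, and ESR1, PGRMC2 and PAQR7 lay between -0.18 and -0.12. In BV they were 0.67 ± 0.39 for PAQR7, -0.42 ± 0.30 for PAQR8 and -0.30 ± 0.14 for PGRMC2, and ESR1, NR3C1 and NR3C2 lay between -0.05 and 0.07. PAQR8 and PGRMC2 had negative log2 fold changes in all 4 compartments. For PAQR8 the values in S were 16.4, 9.25, 9.48 and 8.73 CPM in cyclic and 7.95, 7.97, 6.88 and 4.43 CPM in pregnant gilts, which did not overlap (adjusted p = 0.34).

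Whether the pregnancy difference itself varied between compartments was tested in the joint model with the gilt as a block, over 9727 genes in all 4 filtered tables. PAQR7 passed an FDR of 1% (adjusted p = 0.000339), as did 3.05% of all genes, and was the only 1 of the 8 receptor genes tested. Its pregnancy difference was 2.85 ± 0.39 (SE) higher on the log2 scale in LE than in GE (adjusted p = 0.000249, 1.54% of all genes) and 2.74 lower in GE than in BV (log2 -2.74 ± 0.41, adjusted p = 0.00344, 0.185% of all genes). Leaving out any gilt kept the overall adjusted p between 0.000574 and 0.00543 and that of LE against GE between 0.000639 and 0.00381. The contrast of GE with BV was less stable, since its adjusted p rose to 0.0106 without gilt 40, 0.0154 without gilt 42, 0.0218 without gilt 39, 0.036 without gilt 43 and 0.0176 without the gilt of PL139. Without the gilt block the overall adjusted p was 0.0103, that of LE against GE 0.00622 and that of GE against BV 0.0266, so that only LE against GE kept to the threshold. In LE, PAQR7 had 11.8, 3.06, 9.41 and 4.55 CPM in cyclic and 15.9, 9.55, 8.43 and 12.8 CPM in pregnant gilts. All 4 cyclic gilts had less PAQR7 in LE than in GE, whereas each of the 3 pregnant gilts with both libraries had more in LE.

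NR3C2 came next. Its adjusted p for the difference between compartments was 0.0102 with the block and 0.0657 without it, and the contrast of GE with BV was 2.21 ± 0.41 (adjusted p = 0.0112). ESR1 had an overall adjusted p of 0.0359 and a contrast of GE with BV of -1.09 ± 0.27 (adjusted p = 0.0402). PGRMC1 had a contrast of LE with BV of -1.55 ± 0.52 (adjusted p = 0.0606). PAQR5, absent from the filtered tables of BV and S, was tested among genes of at least 1 filtered table, where its contrast of LE with GE was -1.14 (adjusted p = 0.341).

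The promoters of the 5 genes whose cyclic and pregnant values did not overlap in GE (PAQR7 and ESR1, lower in pregnancy, and NR3C2, PAQR5 and NR3C1, higher) and of PGRMC1, whose values did not overlap in BV, are shown so that the start regions of genes that went in opposite directions can be compared. Each is the 250 bases before the outermost annotated start in RefSeq on Sscrofa11.1, the build of the count files, and is written 5′ to 3′ on the gene's strand. Capitals mark the hexamers AGGTCA (contacted by estrogen receptors and other nuclear receptors), AGAACA (contacted by the progesterone, glucocorticoid and mineralocorticoid receptors) and GGGCGG (the GC box of Sp factors), each sought on either strand, so that GGGCGG also appears as CCGCCC and AGAACA as TGTTCT. Adjacent GC boxes share bases where they overlap.
PAQR7, chr6:83329568-83329817, minus strand: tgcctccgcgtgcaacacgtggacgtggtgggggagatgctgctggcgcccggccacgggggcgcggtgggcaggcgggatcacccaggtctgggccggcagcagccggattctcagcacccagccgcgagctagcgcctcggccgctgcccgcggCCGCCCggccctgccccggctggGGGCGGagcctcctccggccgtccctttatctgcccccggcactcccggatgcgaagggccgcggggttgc
ESR1, chr1:14604907-14605156, minus strand: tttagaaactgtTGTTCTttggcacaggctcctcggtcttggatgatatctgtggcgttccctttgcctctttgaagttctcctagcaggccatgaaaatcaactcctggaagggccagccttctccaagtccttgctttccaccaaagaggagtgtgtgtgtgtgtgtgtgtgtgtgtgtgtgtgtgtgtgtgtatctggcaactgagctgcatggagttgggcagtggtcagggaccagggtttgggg
NR3C2, chr8:80302922-80303171, plus strand: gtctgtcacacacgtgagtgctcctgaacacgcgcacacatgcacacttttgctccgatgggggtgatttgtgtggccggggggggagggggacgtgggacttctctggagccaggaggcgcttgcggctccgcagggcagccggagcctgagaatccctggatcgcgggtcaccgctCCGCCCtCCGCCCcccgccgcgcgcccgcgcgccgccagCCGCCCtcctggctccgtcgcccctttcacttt
PAQR5, chr1:167154386-167154635, plus strand: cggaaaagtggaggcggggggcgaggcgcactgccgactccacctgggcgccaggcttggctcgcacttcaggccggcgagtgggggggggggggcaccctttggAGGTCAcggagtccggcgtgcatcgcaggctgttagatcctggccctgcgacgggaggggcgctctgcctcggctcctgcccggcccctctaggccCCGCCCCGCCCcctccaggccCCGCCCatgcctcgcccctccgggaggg
NR3C1, chr2:144956452-144956701, minus strand: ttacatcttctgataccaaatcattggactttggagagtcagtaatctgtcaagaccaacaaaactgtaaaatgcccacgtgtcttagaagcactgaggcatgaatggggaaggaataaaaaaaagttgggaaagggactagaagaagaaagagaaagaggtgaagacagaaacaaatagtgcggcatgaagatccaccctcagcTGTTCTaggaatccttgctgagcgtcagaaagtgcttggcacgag
PGRMC1, chrX:97735152-97735401, plus strand: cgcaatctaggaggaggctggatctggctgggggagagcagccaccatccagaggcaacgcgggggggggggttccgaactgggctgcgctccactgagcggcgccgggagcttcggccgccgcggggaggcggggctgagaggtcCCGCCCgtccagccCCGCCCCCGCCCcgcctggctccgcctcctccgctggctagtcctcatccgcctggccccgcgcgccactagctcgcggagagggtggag

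GC boxes were found 2 times before PAQR7, and 3 times each before NR3C2, PAQR5 and PGRMC1. Over 13718 promoters of detectable genes, 54.4% held at least 1 GC box, 11.1% held AGGTCA and 8.97% held AGAACA. Among the 9 receptor genes, 5 held a GC box (PAQR7, NR3C2, PAQR5, PGRMC1 and PGRMC2), PAQR5 alone held AGGTCA, and ESR1 and NR3C1 held AGAACA. The GC share was 76.8% for PAQR7, 70% for NR3C2, 75.6% for PAQR5 and 75.2% for PGRMC1, against a median of 60.4% over all these promoters and 44.4% for PGR. The windows of ESR1 and NR3C1 held 51.6% and 43.2% GC and no GC box. ESR1 and NR3C1 have further annotated starts that these windows do not cover. PAQR5, PAQR7 and NR3C2 also have several annotated transcripts (14, 4 and 4), and for each gene only the outermost start was read.

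Related genes were counted as lists. Of 10 related receptors and binding proteins with a match, 7 were tested in LE and 6 in each of the other compartments. NENF, a secreted relative of PGRMC1, was called in LE, with 6.69 to 9.99 CPM in cyclic and 19.5 to 26.4 CPM in pregnant gilts (log2 1.45 ± 0.21, adjusted p = 0.00405). The quasi-likelihood test called no other gene of the list, and in LE it called 3.32% of all genes. Of the list, 6, 1, 1 and 1 had an unadjusted p under 0.05 in LE, GE, BV and S, against 26.9%, 23%, 28.5% and 14.5% of all genes. The robust test and DESeq2 each called 2 higher and 1 lower in LE (11.8% and 11.2% of all genes). Among those called were ESR2 and GPER1, which are named here after their values were seen. ESR2, estrogen receptor beta, had 0 counts in the 4 cyclic and 144 in the 4 pregnant LE libraries, where it ranged from 1.71 to 16.5 CPM. It was in the filtered table of LE only, and it passed that filter through the pregnant libraries alone. Its p values are therefore not given, and its values are a description. ESR2 remains among the 7 genes tested in LE, so the LE counts and the LE median of this list include it and are read as a description too. GPER1, a membrane estrogen receptor, had 7.96 to 37.5 CPM in cyclic and 1.28 to 5.66 CPM in pregnant LE (log2 -2.86 ± 0.60, adjusted p = 0.0174 with the quasi-likelihood test, 2.4e-07 with the robust test and 4.83e-05 with DESeq2). The smallest p was that of ADIPOR1 in BV (log2 0.71 ± 0.24) and that of PAQR6, membrane progestin receptor delta, in S (log2 1.15 ± 0.40). The median log2 fold change of the list was 0.69 for LE, -0.01 for GE, 0.21 for BV and 0.26 for S, while the median of all genes lay between -0.01 and 0.00 in every compartment.

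The 10 chaperones that hold steroid receptors ready for hormone leaned to lower values in pregnancy, with medians of -0.59 (LE), -0.45 (GE), -0.37 (BV) and -0.39 (S). HSPA4, a heat shock protein 110 family co-chaperone, was called in LE (216 to 352 CPM in cyclic and 83.0 to 121 CPM in pregnant gilts, log2 -1.40 ± 0.19, adjusted p = 0.00313) and had the smallest p in GE (-1.73 ± 0.47, adjusted p = 0.09). HSPA8 was lowest in p in BV (-1.12 ± 0.21, adjusted p = 0.018) and STIP1, which links HSP70 to HSP90, in S (-0.74 ± 0.18, adjusted p = 0.122). HSPA4 was the only 1 of the 10 called in LE (3.32% of all genes). An unadjusted p under 0.05 was reached by 8, 4, 6 and 4 of the 10 in LE, GE, BV and S, against 26.9%, 23%, 28.5% and 14.5% of all genes. FKBP5, a co-chaperone induced by glucocorticoids and named here after its values were seen, went the other way in LE (0.73 ± 0.25, adjusted p = 0.0963) and BV (0.93 ± 0.21, adjusted p = 0.0332), where the robust test (adjusted p = 0.000606) and DESeq2 (adjusted p = 0.00177) called it higher. Of 11 coregulators none was called by the quasi-likelihood or the robust test and 1 by DESeq2 in BV (8.5% of all genes). In LE, GE, BV and S, 3, 1, 4 and 2 of them had a p under 0.05, beside the shares of all genes just given. NCOA2 had the smallest p in LE (0.67 ± 0.20) and S (0.50 ± 0.15), and MED1 in GE (-0.36 ± 0.15) and BV (-0.46 ± 0.12).

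Among 13 genes known to respond to corticosteroids, KLF9 (log2 2.50 ± 0.40) and CEBPD (1.44 ± 0.24), a pair of transcription factors, rose in LE, and SCNN1G, a subunit of the epithelial sodium channel, fell (-2.72 ± 0.48), with adjusted p of 0.00667, 0.00682 and 0.009. KLF9 had 3.50 to 13 CPM in cyclic and 31.6 to 42.4 CPM in pregnant LE, and SCNN1G 15.5 to 40.5 and 1.91 to 8.28 CPM. In BV the clock gene PER1 rose (1.23 ± 0.13, adjusted p = 0.013), from 37.2 to 41.4 CPM in cyclic to 79.9 to 103 CPM in pregnant gilts. Called were thus 2 higher and 1 lower of 13 tested in LE (3.32% of all genes) and 1 of 11 in BV (1.86%). An unadjusted p under 0.05 was reached by 10 of 13 in LE and 6 of 11 in BV (26.9% and 28.5% of all genes). The robust test called 5 higher and 2 lower in LE and 5 higher in BV (11.8% and 11% of all genes). In GE and S none of 11 was called, the smallest p being those of ERRFI1 in GE (1.36 ± 0.25) and KLF9 in S (1.11 ± 0.34). There 6 and 2 genes had a p under 0.05 (23% and 14.5% of all genes). The robust test called 4 and 1 (6.66% and 3.16% of all genes). FKBP5 is counted in this list as well as among the chaperones. The medians were 0.95 (LE), 0.52 (GE), 0.58 (BV) and 0.19 (S).

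Of 16 progesterone-responsive genes with a match, ACP5, the iron-carrying uteroferrin of the glands, rose in BV (log2 5.88 ± 0.84) and S (3.18 ± 0.47), and the transcription factor SOX17 rose in BV (1.44 ± 0.20), with adjusted p of 0.013, 0.0891 and 0.013, where S was called by the p limit taken from LE. ACP5 had 4469 to 6710 CPM in pregnant GE, 32.6 to 606 CPM in pregnant BV and 2.97 to 11.1 CPM in cyclic BV, beside the higher epithelial markers of pregnant BV given above. SOX17 had 158 to 168 CPM in pregnant GE and 42.9 to 68.9 CPM in pregnant BV. These calls were 2 of 13 tested in BV (1.86% of all genes) and 1 of 14 in S (0.293%). In BV and S, 8 and 2 genes had a p under 0.05 (28.5% and 14.5% of all genes). The robust test called 3 and 1 (11% and 3.16% of all genes). In LE and GE none of the 12 tested in each was called, and 4 and 5 of them had a p under 0.05 (26.9% and 23% of all genes). The robust test called 2 and 4 there (11.8% and 6.66% of all genes). FOXO1 in LE (1.55 ± 0.38) and HOXA10 in GE (1.30 ± 0.23) had the smallest p. Of 13 estrogen-responsive genes FGF9, a growth factor of the gland and luminal epithelium, rose in LE (3.27 ± 0.40, from 1.34 to 4.37 CPM in cyclic to 15.0 to 30.1 CPM in pregnant gilts). FGF9 was the only 1 of 10 tested called in LE (3.32% of all genes), and 6 had a p under 0.05 there (26.9%). With the robust test 3 higher and 2 lower were called in LE (11.8%). None was called in GE, BV or S, where 6 of 9, 3 of 9 and 3 of 8 tested had a p under 0.05 (23%, 28.5% and 14.5% of all genes). The robust test called 3, 2 and 1 there (6.66%, 11% and 3.16% of all genes). FGF9 had the smallest p in GE (2.01 ± 0.35), and CTSD, the protease cathepsin D, in BV (0.80 ± 0.16) and S (0.71 ± 0.14). Of 6 enzymes that convert or conjugate steroid ligands, 5 were tested in LE and 4 in each of the other compartments. None was called by the quasi-likelihood or the robust test, and DESeq2 called 1 in GE (6.64% of all genes). HSD17B4 (-0.65 ± 0.15 in GE, -0.53 ± 0.14 in BV) and SULT1E1 (1.52 ± 0.75 in LE, 0.63 ± 0.36 in S) had the smallest p.

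Finally, the genes whose log2 CPM ran most alike to each receptor over the 31 libraries were listed by Pearson correlation, as a description. The libraries share gilts and fall into compartments, so that these values mostly rank how alike genes are distributed over compartments. PGRMC1 ran with CLCN3 (r = 0.978), PIP4K2C (0.976) and RBM47 (0.97), and PAQR5 with METTL17 (0.962), PTGER2, a prostaglandin E2 receptor (0.96), and AP1B1 (0.951). For PGR they were ATF6B (0.916), CD276 and LRRN4CL (0.9 each). NR3C1 ran with ZNF521 (0.844), KIAA0355 (0.815) and LOC102160748 (0.814), NR3C2 with VSIG10 (0.831), STAC (0.817) and CLASP1 (0.816), and PGRMC2 with PDXDC1 (0.854), NAPEPLD (0.847) and TMEM64 (0.842). Lower values were found for PAQR8, with GAPDH (0.788), VCP (0.759) and PKM (0.746), for ESR1, with TSEN15 (0.747), ENOX2 (0.742) and PADI2 (0.741), and for PAQR7, with DCAF15 (0.582), LOC110256160 and CLSTN1 (0.565 each). Among the receptors themselves, the highest correlation was that of PGRMC1 with PAQR5 (0.852), followed by ESR1 with PAQR8 (0.728), and the lowest that of PGR with PGRMC1 (-0.755).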

How the data were processed

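RNA of laser-captured LE, GE, BV and S was measured by RNA-seq (picogram input, Ovation SoLo kit). The authors used Trim Galore for trimming, Hisat2 for mapping to the Sscrofa11.1 assembly, nudup against PCR duplicates and QuasR for counting (versions not given in the sources used here). Removal of duplicates can limit the highest counts, and low input can raise the spread of low ones. Neither was tested here. The deposited values are raw counts per gene and library, in a full table of 30185 genes and a shorter table that keeps genes above a CPM limit (not given in the sources used here). The authors' own tool for testing was edgeR, per the labels.

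The members and gene lists were chosen with earlier results of these data known. Of 121 list entries 119 matched a gene ID. For each compartment, pregnancy was tested on the filtered counts by edgeR 4.0.16 quasi-likelihood (R 4.3.3, TMM, Benjamini-Hochberg over all genes of the table). DESeq2 1.42.0, edgeR's robust likelihood ratio test, RLE scaling, no filter, filterByExpr, leaving out RN18S and RN5-8S (5.2% to 16.9% of counts) and leaving out single libraries were alternatives. Levels and interactions were fitted jointly with gilt as a replicate block. The pairing comes from the animal: deviations from group means correlated with a median r of 0.165 in 45 same-gilt pairs (range -0.143 to 0.369) and -0.0478 in 135 pairs of different gilts, and without the block 22 rather than 25 level comparisons passed. A prior count of 2 was used for log2 CPM. Libraries of a group differed by more than sampling noise (chi-square per degree of freedom 6.4 to 66.5), and gilts are the replicates. In cyclic GE, pairs with gilt 128 had 40.8 to 66.5 and the other pairs 15.6 to 31.4. In cyclic LE, pairs with gilt 128 had 34.4 to 52.2 and the other pairs 11.0 to 28.0. In cyclic BV and S, pairs with gilt 128 overlapped the other pairs. Total counts per library set the precision, at 0.141 to 0.414 CPM per count. Scripts were tested on simulated data.

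Named were all members, of the lists the genes called in at least 1 compartment and the gene with the smallest p per list and compartment, and the 3 genes most alike to each member. A gene that this rule names is not reported here. Promoter letters come from RefSeq on Sscrofa11.1. Complete endometrium was not analysed here.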

Additional observations from a re-analysis of the deposited data

Results flagged for a closer look

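Of 63 groups of 4 libraries (9 genes, 4 compartments, cyclic or pregnant, pregnant GE left out with n = 3), 5 held a library far from the others by Dixon's test at 95%, where chance gives about 1 in 20 groups. PGR in pregnant S was highest in gilt 39, with 275 CPM against 199 CPM in the next library. PGRMC1 in cyclic LE was highest in CL128, with 800 against 446 CPM. PAQR8 in cyclic S was also highest in CS128, with 16.4 against 9.48 CPM. NR3C1 was highest in gilt 39 in pregnant LE, with 147 against 97.9 CPM, and in gilt 78 in cyclic BV, with 204 against 165 CPM. The cause was not tested.

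The pregnancy difference of PAQR7 varied between compartments (adjusted p = 0.000339 in the joint edgeR fit with gilt as block), being lower in all 3 pregnant GE libraries than in all 4 cyclic ones and not in LE, BV or S, where the groups overlapped.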

How the results depend on the processing

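In GE the count of receptor genes called rose from 0 to 5 with the robust test, 4 with DESeq2, and 2 with no filter or with FDR 5%, and lay between 0 and 2 when single libraries were left out, reaching 2 without cyclic gilt 40. In BV it rose from 0 to 1 with the robust test, DESeq2, no filter and FDR 5%. It stayed at 0 in LE and S under every alternative run. The count of genes whose pregnancy difference varied between compartments was 1, fell to 0 with no replicate block, and lay between 1 and 2 when single gilts were left out, reaching 2 (PAQR7 and NR3C2) without gilt 42 or the gilt of PL139. The count of compartment differences was 25, 22 without the block and between 21 and 28 without single gilts.

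Signs turned only for small differences that no test called. With the robust test the log2 fold change of PGRMC1 in LE was 0.01 and that of NR3C2 in BV 0.08. Over libraries left out, PGRMC1 in LE ranged from -0.19 to 0.20, PAQR5 in LE from -0.04 to 1.37, NR3C1 in LE from -0.35 to 0.11, PGR in GE from -0.51 to 0.02, ESR1 in BV from -0.10 to 0.20, NR3C1 in BV from 0.00 to 0.16, NR3C2 in BV from -0.26 to 0.27, PGR in S from -0.06 to 0.21 and PAQR7 in S from -0.32 to 0.07. RLE scaling moved the median of all genes by at most 0.01. Of 34 gene results, GE rests on 3 pregnant libraries, and PAQR7, PAQR8 and NR3C2 rest on few counts.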
